A study of Mus musculus with 6 samples.

Results

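The genes described here are 44 genes of DNA replication and nucleotide synthesis, measured by RNA sequencing of whole mouse aorta at 2 ages. They were taken by symbol from a given list of replication proteins, from origin licensing factors to the enzymes that supply deoxynucleotides. All 44 are among the 55335 genes in the table of counts, and all 44 passed the filter on low counts that left 16612 genes for testing. The young group was 3 wild-type mice aged 6 weeks and the aged group was 3 wild-type mice aged 6 months, with 1 library for each mouse. The labels give the strain as c57b6l and the methods give male C57BL/6 mice. No treatment or transgene was used in either group.

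A cell copies its DNA in S phase. Origins are licensed beforehand, when ORC, CDC6 and CDT1 load the ring-shaped MCM2-7 helicase onto DNA. CDC45, the GINS complex and MCM10 then switch the helicase on, polymerases copy the strands behind a sliding clamp, and ribonucleotide reductase and thymidylate synthase make the building blocks. Many of these genes are transcribed in waves under E2F transcription factors, so they are commonly read as signs of cells in the cycle. Adult aorta is made mainly of smooth muscle cells that seldom divide. In bulk tissue, fewer cells in S phase and less RNA per cell cannot be told apart.

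The libraries held between 31049632 and 45832185 counts on genes, so that 3 counts corresponded to between 0.0619 and 0.106 CPM (the rate of counts in a library after TMM normalization). Young replicate 1 stood apart. It had 305.6 CPM of Xist, the noncoding RNA that coats the inactive X chromosome, against at most 0.636 in the other 5 libraries, and 1.09 CPM of the Y-linked Ddx3y against at least 44.8. High Xist with little Y-linked RNA is the pattern of female tissue, whereas the methods give male mice. The sex of this mouse was not tested. Young replicate 1 also differed in the clock gene Arntl (49.8 CPM against at most 8.14) and in summed heart muscle markers (266 CPM against at most 56.9). Aged replicate 2 lay at -13.4 on the main axis of variation, nearer the young libraries (-52.2 to -10.3) than the other aged ones (53.8 and 62.7). Smooth muscle markers such as Acta2 and Myh11 summed to between 27960 and 40140 CPM in every library, and all 6 of these markers had a log2 fold change below 0.

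Promoters of 5 members are shown because the pathway is known for E2F sites and CCAAT boxes just upstream of its start sites, and the genes are the 4 with an unadjusted p below 0.05 and Mcm6, the most abundant subunit of the helicase. The sequences are the 250 bases before the RefSeq start (GRCm38.p6, 5′ to 3′ on the gene's strand). For Cdc6, the GENCODE annotation begins the gene at 98907801, before this window, so the bases printed lie inside the gene as placed there. For Mcm6 (chr1:128359706-128359955, minus strand), Dtl (chr1:191575545-191575794, minus strand) and Cdc6 (chr11:98907901-98908150, plus strand), capitals mark a match to the E2F motif on either strand. The motif was searched as TTTCCCGC, TTTCGCGC, TTTGCCGC or TTTGGCGC, and matches may overlap each other.
Mcm6: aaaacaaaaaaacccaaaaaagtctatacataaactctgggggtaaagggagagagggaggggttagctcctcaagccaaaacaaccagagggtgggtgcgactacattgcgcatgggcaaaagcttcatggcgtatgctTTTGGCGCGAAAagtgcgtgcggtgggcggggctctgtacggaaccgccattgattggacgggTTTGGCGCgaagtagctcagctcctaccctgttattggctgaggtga
Dtl: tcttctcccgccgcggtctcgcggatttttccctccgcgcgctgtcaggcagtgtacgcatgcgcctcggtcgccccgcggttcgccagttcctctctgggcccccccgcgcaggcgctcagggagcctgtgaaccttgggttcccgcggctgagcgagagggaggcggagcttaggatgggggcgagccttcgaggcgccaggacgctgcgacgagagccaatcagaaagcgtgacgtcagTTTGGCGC
Cdc6: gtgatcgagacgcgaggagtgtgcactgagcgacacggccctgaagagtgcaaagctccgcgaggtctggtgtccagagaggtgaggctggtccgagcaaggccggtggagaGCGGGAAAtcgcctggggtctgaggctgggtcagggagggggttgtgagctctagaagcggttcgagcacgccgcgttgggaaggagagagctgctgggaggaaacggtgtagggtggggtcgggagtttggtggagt
For Mcm10 (chr2:5012792-5013041, minus strand) and Mcm2 (chr6:88898781-88899030, minus strand), no letters in the window matched the E2F motif, and capitals mark CCAAT on either strand.
Mcm10: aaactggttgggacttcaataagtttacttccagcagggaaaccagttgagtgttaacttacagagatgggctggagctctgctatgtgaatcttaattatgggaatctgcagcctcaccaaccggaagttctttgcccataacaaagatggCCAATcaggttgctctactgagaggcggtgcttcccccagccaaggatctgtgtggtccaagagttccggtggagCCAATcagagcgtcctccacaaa
Mcm2: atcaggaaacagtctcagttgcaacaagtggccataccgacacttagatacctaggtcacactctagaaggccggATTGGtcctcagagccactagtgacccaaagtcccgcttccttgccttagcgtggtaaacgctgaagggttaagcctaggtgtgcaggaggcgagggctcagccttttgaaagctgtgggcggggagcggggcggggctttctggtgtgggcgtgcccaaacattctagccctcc

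Windows reaching from 250 bases before to 50 bases after the start were held for 36 members. The E2F motif was found in 14 of them (38.9%), against 4.38% of the 11317 tested genes with a window and 2.6% of all 27025 genes with a window. CCAAT was found in 23 (63.9%), against 42.5% of tested genes. The CHR element of cell cycle genes (TTTGAA or TTTAAA, either strand) was in 8 (22.2%), against 22.7%. E2F matches were most frequent at the licensing genes and at the helicase, with 4 of 5 windows in each group, and none was found in the 5 windows of nucleotide synthesis genes, the 3 of RPA or the 2 of chromatin assembly. Among 18 windows of mitotic genes the E2F motif was in 1 (5.56%) and the CHR element in 15 (83.3%). A match is a run of letters and not an occupied site. A miss means only that these exact letters were absent from the window, and not that a gene lacks E2F sites. Members with a match had a median log2 fold change of 0.22 (9 of 14 higher in aged aorta), and members without one had 0.29 (18 of 22 higher).

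Replication genes were transcribed at low levels in aorta of both ages. Together the 44 genes took between 0.037% and 0.0515% of all counts. By FPKM, which adjusts counts for the length of a gene and the size of a library, the median member was at 1.45, below the median of 2.73 over all genes tested, and 16 members were below 1 FPKM. Pcna, the sliding clamp, was the highest member over the 6 libraries (mean 13.6 FPKM) at 13.3 ± 1.73 FPKM (SD, n = 3) in the young group against 13.9 ± 1.59 (SD, n = 3) in the aged group. Mcm6, a subunit of the helicase ring, came next (mean 12.6 FPKM) at 14.5 ± 0.368 FPKM (SD, n = 3) and 10.7 ± 2.84 (SD, n = 3). Gins4, a subunit of GINS, was at 11.1 ± 1.03 FPKM (SD, n = 3) and 8.86 ± 3.13 (SD, n = 3). At the other end, Dtl, which targets the licensing factor CDT1 for destruction, averaged 0.0626 FPKM over the 6 libraries.

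**Figure D1:**
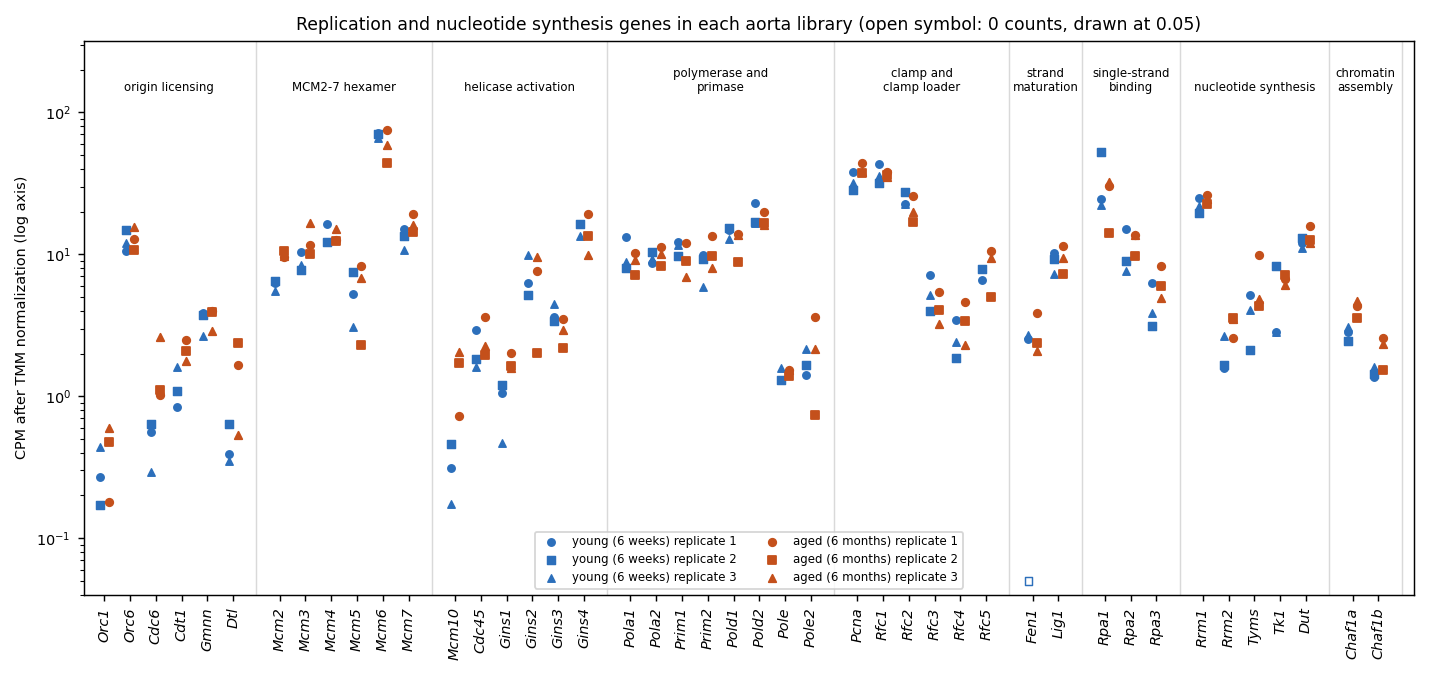
CPM after TMM normalization (log axis) of each of the 44 genes in the 3 young (blue) and 3 aged (orange) aorta libraries, grouped by role. The symbol gives the replicate, and the open square marks 0 counts of Fen1 in young replicate 2. Most members overlap between the ages, and all aged points lie above all young points only for Cdc6, Cdt1, Mcm2, Mcm10, Gins1 and Chaf1a.

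No replication gene passed the test of aged against young aorta. With edgeR's quasi-likelihood test over all 16612 genes, 0 members had an adjusted p below 0.05, the lowest being 0.377, and 0% of all genes were called. DESeq2 called 338 genes, 221 of them higher in aged aorta (1.48% of the genes it adjusted), and 0 members, with a lowest adjusted p of 0.0517 for Mcm10. Without aged replicate 2, edgeR called 110 genes and again 0 members. At an unadjusted p below 0.05, 4 members were higher in aged aorta (9.09%), namely Mcm2, Mcm10, Cdc6 and Dtl, against 5.56% of all genes tested. None of the 44 was lower at that threshold in the edgeR fit, against 4.82% of all genes.

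By direction alone, 31 members (70.5%) had a log2 fold change above 0, against 52.1% of all genes tested. Their median log2 fold change was 0.19, and that of all genes was 0.02. Every aged library exceeded every young library in CPM for 6 members (13.6%), against 7.74% of all genes, and the reverse held for 0 members, against 8.78%. On the deposited FPKM, with a pseudocount of 1, the median log2 difference of all genes was -0.12. There, 22 members were higher and 22 lower, against 31.5% of all genes higher, and the median of the members lay 0.11 above that of all genes. The FPKM of 4 members (Cdc6, Mcm2, Mcm10 and Gins1) were higher in every aged library than in any young one, against 3.24% of all genes tested, and those of 3 members (Mcm6, Gins3 and Pold1) were lower, against 20.9%.

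Differences between single libraries were as large as the difference between the ages. The summed CPM of the 44 genes was 487, 464 and 418 in the young libraries and 545, 396 and 471 in the aged libraries. The group means of 456 ± 35.1 (SD, n = 3) and 471 ± 74.4 (SD, n = 3) CPM overlapped. Aged replicate 1 was the highest of the 6 libraries for 21 members and the lowest for 0, whereas young replicate 3, aged replicate 2 and young replicate 2 were the lowest for 13, 12 and 11. Without aged replicate 1, 25 members were higher and the median log2 fold change was 0.07. Leaving out aged replicate 2 instead gave 33 higher members and a median of 0.36. Without young replicate 1 and aged replicate 2 together, an omission chosen after seeing the data, 36 were higher with a median of 0.35, and again 0 were called by edgeR. There, 4 had an unadjusted p below 0.05, namely Mcm2, Cdc6, Mcm3 and Rpa2, so that Mcm10 and Dtl were no longer among them.

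The direction went with the level of the gene. All 12 members with a mean below 3 CPM had a positive log2 fold change, with a median of 0.69, while 55.3% of the 4567 tested genes at that level did, with a median of 0.10. Between 3 and 10 CPM, 12 of 16 members were positive with a median of 0.14, against 53.7% of all genes at that level. At 10 CPM and above, 7 of 16 were positive (43.8%), near the 50% of all genes, and the median was -0.02. The abundant members went both ways, from -0.37 for Rpa1 to 0.52 for Mcm3, and the largest values belonged to genes with few counts.

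**Figure D2:**
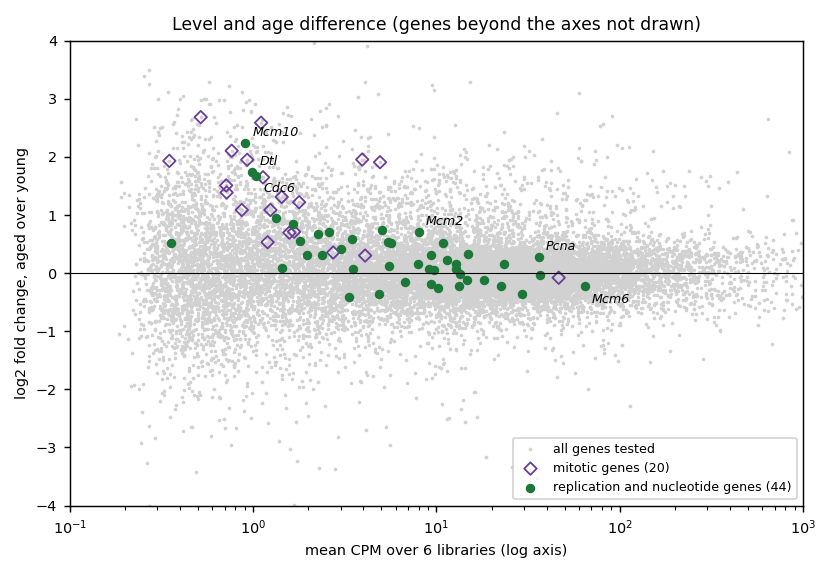
Log2 fold change of aged over young aorta (vertical axis) against mean CPM over the 6 libraries (log horizontal axis) for all genes tested (grey), the 44 replication genes (green) and 20 mitotic genes (open diamonds). Mcm10, Dtl and Cdc6 lie near 1 CPM with log2 fold changes of 2.24, 1.73 and 1.67, while Pcna (0.28) and Mcm6 (-0.23) lie above 30 CPM near the horizontal line.

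Most macrophage markers had higher values in aged aorta, with 0 of 12 called by edgeR, 3 by edgeR without aged replicate 2 and 6 by DESeq2. Over all genes, edgeR without aged replicate 2 called 110 of 17147, and DESeq2 called 1.48% as higher. The 12 macrophage markers summed to 150, 120 and 111 CPM in young and 505, 159 and 342 CPM in aged aorta. All 12 had a positive log2 fold change (median 1.39), the smallest being 0.05 for Ptprc. At an unadjusted edgeR p below 0.05, 10 were higher, against 5.56% of all genes. Fibroblast markers summed to 1858, 2128 and 2856 CPM in young aorta and to 6578, 1704 and 4830 in aged aorta, with all 6 positive. The mean log2 CPM of the 44 replication genes was 2.71, 2.57 and 2.55 in young and 3.04, 2.63 and 2.84 in aged aorta. The summed macrophage, fibroblast and heart muscle markers put the aged libraries in the same order, the last at 56.9, 41.7 and 46.8 CPM. Other marker lists, such as smooth muscle and endothelial markers, gave other orders of the aged libraries. In the young libraries, macrophage markers had the order of the replication genes and fibroblast markers the reverse order. Heart muscle markers were at 266, 40.5 and 43.3 CPM there, which was neither order. T cell markers summed to at most 6.18 CPM in any library. Neutrophil markers summed to 0.227, 0.489 and 1.66 CPM in young and 1.44, 1.67 and 2.97 CPM in aged aorta, with Ly6g at 0 in all 6 libraries. The part of these cells in the replication genes was not tested.

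Origin licensing genes were positive in 6 of 6 cases, against 52.1% of all genes, with a median log2 fold change of 0.68. The values of Orc6 (0.06, SE 0.22) and Gmnn (0.07, SE 0.29) were smaller than their SE. At an unadjusted p below 0.05, 2 were higher (Cdc6 and Dtl), where 5.56% of all genes were. CDC6 is the ATPase that helps ORC load the helicase. Cdc6 (chromosome 11, 98907801 to 98923940, plus strand, GRCm38) was at 0.557, 0.632 and 0.291 CPM in young and 1.02, 1.11 and 2.62 CPM in aged aorta. These values rest on 27, 22 and 10 counts against 34, 42 and 74. The groups did not overlap, and aged replicate 3 stood far above the other aged libraries. The log2 fold change was 1.67 (SE 0.58, edgeR adjusted p = 0.420), and it ranged from 1.11 to 1.90 with each library left out in turn.

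Cdt1 encodes the partner of CDC6 in loading. It was at 0.846, 1.09 and 1.60 CPM in young and 2.50, 2.09 and 1.77 CPM in aged aorta, without overlap but with young replicate 3 close to aged replicate 3. Its log2 fold change was 0.85 (SE 0.40, edgeR adjusted p = 0.516). Gmnn encodes geminin, the inhibitor of CDT1, and was at 3.86, 3.74 and 2.65 CPM in young and 3.97, 3.90 and 2.90 CPM in aged aorta. Its log2 fold change of 0.07 was smaller than its SE of 0.29. The ratio of Cdt1 to Gmnn FPKM was 0.171 ± 0.0924 (SD, n = 3) in the young group against 0.269 ± 0.0208 (SD, n = 3) in the aged group, and young replicate 3 at 0.276 lay inside the aged range.

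Dtl (chromosome 1, 191537356 to 191575544, minus strand) was at 0.392, 0.632 and 0.350 CPM in young and 1.66, 2.39 and 0.531 CPM in aged aorta. Aged replicate 3, with 15 counts, fell within the young range, so the groups overlapped. The log2 fold change was 1.73 (SE 0.64, edgeR adjusted p = 0.441), and without aged replicate 2 it was 1.26. Orc1, the ATPase subunit of the origin recognition complex, was at 0.268, 0.172 and 0.437 CPM in young and 0.181, 0.477 and 0.602 CPM in aged aorta, on at most 18 counts. Its groups overlapped. Orc6, the smallest subunit, was more abundant, at 10.6, 14.9 and 11.9 CPM in young and 12.8, 10.8 and 15.5 CPM in aged aorta, and overlapped fully.

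The MCM2-7 ring is built from 6 related subunits, and 4 of the 6 had a positive log2 fold change, with a median of 0.23. Mcm2 (chromosome 6, 88883474 to 88898780, minus strand) was at 6.30, 6.5 and 5.51 CPM in young and 9.57, 10.5 and 9.80 CPM in aged aorta. Its groups were well apart, at 6.10 ± 0.522 (SD, n = 3) and 9.96 ± 0.482 (SD, n = 3) CPM, and it had the smallest p among the 6 subunits. The log2 fold change was 0.71 (SE 0.20, edgeR adjusted p = 0.377) and stayed between 0.65 and 0.76 with each library left out.

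Mcm6 (chromosome 1, 128331590 to 128359664, minus strand), the most abundant subunit, was at 71.7, 70.4 and 65.7 CPM in young and 74.8, 43.8 and 59.2 CPM in aged aorta. Aged replicate 1 was above all young libraries and the other 2 aged libraries were below them, whereas by FPKM all 3 aged values were lower. The same held by FPKM for 20.9% of all genes tested. The log2 fold change was -0.23 (SE 0.21, edgeR adjusted p = 0.717), and it was -0.05 without aged replicate 2 and -0.43 without aged replicate 1. Mcm3 was at 10.4, 7.79 and 8.39 CPM in young and 11.6, 10.1 and 16.6 CPM in aged aorta, which overlapped through young replicate 1, for a log2 fold change of 0.52 (SE 0.25). Mcm7 was at 15.2, 13.5 and 10.8 CPM against 19.2, 14.3 and 16.1 CPM, for a log2 fold change of 0.33 (SE 0.21). These 2 subunits leaned towards aged aorta without passing either threshold.

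Mcm4 was at 16.4, 12.2 and 12.1 CPM in young and 12.7, 12.3 and 15.1 CPM in aged aorta, for a log2 fold change of -0.02 (SE 0.21). Mcm5 was the most scattered subunit. It was at 5.22, 7.47 and 3.06 CPM in young and 8.21, 2.31 and 6.76 CPM in aged aorta, and aged replicate 2 was below every young library.

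The subunits are compared here by FPKM. FPKM depends on the gene length used in the scaling, so the values below are proportions of FPKM and not of transcripts or protein. Mcm6 made up 54.2%, 57.3% and 59.6% of the summed FPKM of the 6 subunits in young and 52.8%, 45.2% and 45.3% in aged aorta. Mcm2 made up 3.17%, 3.52% and 3.29% in young and 4.50%, 7.23% and 5.0% in aged aorta. Neither set of shares overlapped between the ages, nor did those of Mcm3 (7.82% to 9.76% against 10.1% to 15.7%) and Mcm7 (10.2% to 12.1% against 12.9% to 15.4%). These are not separate results, since the shares add up to the whole and a smaller share of Mcm6 raises the others. The FPKM of Mcm3 (2.02 to 2.63 against 2.30 to 3.56) and Mcm7 (2.41 to 3.25 against 2.74 to 3.68) overlapped. The ratio of Mcm6 to Mcm2 FPKM was 17.2 ± 0.911 (SD, n = 3) in the young group against 9.02 ± 2.74 (SD, n = 3) in the aged group, lowest at 6.25 in aged replicate 2. These proportions were computed after the CPM of the genes were known, and no test was made of them.

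**Figure D3:**
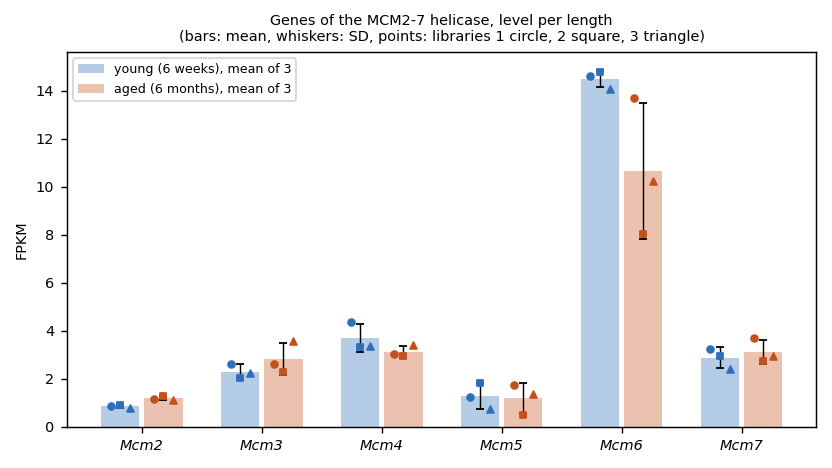
FPKM of the 6 genes of the MCM2-7 helicase in young (blue) and aged (orange) aorta, with bars for the mean of 3 libraries, whiskers for the SD and a point for each library. Mcm6 stands above the other subunits at both ages (14.5 and 10.7 FPKM), all 3 aged points of Mcm2 lie above its young points, and those of Mcm6 lie below. Of all genes tested, 3.24% had every aged FPKM above every young one, and 20.9% had every aged FPKM below.

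Helicase activation genes were split, with 3 of 6 positive and a median log2 fold change of 0.10. MCM10 binds the loaded helicase and helps it open the duplex. Mcm10 (chromosome 2, 4989714 to 5012791, minus strand) was at 0.310, 0.460 and 0.175 CPM in young and 0.722, 1.72 and 2.05 CPM in aged aorta, from 15, 16 and 6 counts against 24, 65 and 58. All aged values were above all young values, and aged replicate 1 was the nearest to the young group. Its log2 fold change of 2.24 was the largest among the 44 genes (SE 0.62, edgeR adjusted p = 0.377, DESeq2 adjusted p = 0.0517). With each library left out it ranged from 1.95 to 2.61.

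Gins1, a subunit of the GINS complex that links helicase and polymerase, was at 1.05, 1.21 and 0.466 CPM in young and 2.02, 1.64 and 1.59 CPM in aged aorta. The groups did not overlap, and young replicate 3 was the low value. Its log2 fold change was 0.94 (SE 0.47, edgeR adjusted p = 0.533). The other 3 subunits had negative values. Gins3 was at 3.61, 3.39 and 4.49 CPM in young and 3.49, 2.17 and 2.94 CPM in aged aorta, for a log2 fold change of -0.42 (SE 0.30). Gins4, the most abundant of them, was at 16.3, 16.3 and 13.4 CPM in young and 19.2, 13.4 and 9.84 CPM in aged aorta, for a log2 fold change of -0.11 (SE 0.27). Gins2 was at 6.30, 5.14 and 9.82 CPM in young and 7.61, 2.01 and 9.56 CPM in aged aorta (log2 fold change -0.15, SE 0.55). The annotation places 67.3% of the exon bases of Gins2 under exons of Gse1 on the opposite strand. Gse1 held 489 counts in aged replicate 2 and 369 in aged replicate 3, against 80 to 150 elsewhere. Without knowledge of strand in the counting, reads of the pair cannot be told apart. Cdc45, the partner of GINS, was at 2.91, 1.84 and 1.60 CPM in young and 3.64, 1.96 and 2.27 CPM in aged aorta, and its sign turned without aged replicate 1 (-0.01).

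Polymerase and primase genes ranged from Pole, at 1.39 ± 0.160 (SD, n = 3) against 1.48 ± 0.0868 (SD, n = 3) CPM in young and aged aorta, to Pold2, at 18.9 ± 3.65 (SD, n = 3) against 17.5 ± 2.10 (SD, n = 3). They showed 4 positive and 4 negative values and a median log2 fold change of -0.03. The primase subunits that start each strand went apart, Prim1 at -0.26 (SE 0.25) and Prim2 at 0.31 (SE 0.29). Their polymerase alpha partners Pola1 and Pola2 were at -0.18 and 0.06. For the lagging strand polymerase delta, Pold1 was at -0.23 and Pold2 at -0.11, and for the leading strand polymerase epsilon, Pole was at 0.09 and Pole2 at 0.32. Of these 8 genes, 0 had groups that did not overlap in CPM, and the lowest edgeR adjusted p was 0.717.

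The clamp and its loader were also divided. Pcna (chromosome 2, 132249162 to 132253314, minus strand) was at 37.9, 28.4 and 31.9 CPM in young and 44.1, 37.1 and 37.8 CPM in aged aorta. Only young replicate 1 reached into the aged range. The log2 fold change was 0.28 (SE 0.17, edgeR adjusted p = 0.591), and it was 0.41 without young replicate 1. Pcna has a processed copy, Pcna-ps2, which received between 49 and 112 counts and could share reads with it. The loader subunits, which open the clamp, lay between 2.58 ± 0.801 (SD, n = 3) CPM for Rfc4 and 37.0 ± 5.91 (SD, n = 3) CPM for Rfc1 in young aorta. They had log2 fold changes of -0.03 for Rfc1, -0.22 for Rfc2, -0.37 for Rfc3, 0.41 for Rfc4 and 0.16 for Rfc5, and the largest SE among them was 0.39. On the opposite strand, Eif4a2 (4700 to 9400 counts) covers 12.7% of the exon bases of Rfc4. Wsb2 (1880 to 3095 counts) covers 10.7% of those of Rfc5. Without strand, shared reads cannot be told apart. Opposite exons also overlap Rfc2, Orc1, Orc6, Mcm7, Cdc45, Pole, Lig1 and Tk1, by at most 15.1%.

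Fen1 and Lig1, which trim and seal Okazaki fragments, had log2 fold changes of 0.67 (SE 1.14) and 0.06 (SE 0.25). Fen1 was at 2.52, 0 and 2.71 CPM in young and 3.88, 2.36 and 2.09 CPM in aged aorta. The value of 0 in young replicate 2 stood against at least 59 counts in each other library, and without that library the log2 fold change of Fen1 was 0.09. An antisense gene, Gm10143, covers 78.8% of the exon bases of Fen1, and it held 74 counts in young replicate 2 against 3 to 22 elsewhere. Without strand, the reads of these genes cannot be told apart.

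For RPA, the complex that coats single-stranded DNA, the large subunit Rpa1 was the most scattered. It was at 24.5, 52.5 and 22.2 CPM in young and 30.5, 14.1 and 32.5 CPM in aged aorta, with replicate 2 at opposite ends in the 2 groups. Its log2 fold change was -0.37 (SE 0.43) and became 0.14 without young replicate 2. Rpa2 and Rpa3, the smaller subunits, at 10.6 ± 3.89 (SD, n = 3) and 4.43 ± 1.64 (SD, n = 3) CPM in young aorta, had log2 fold changes of 0.22 (SE 0.30) and 0.53 (SE 0.34).

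**Figure D4:**
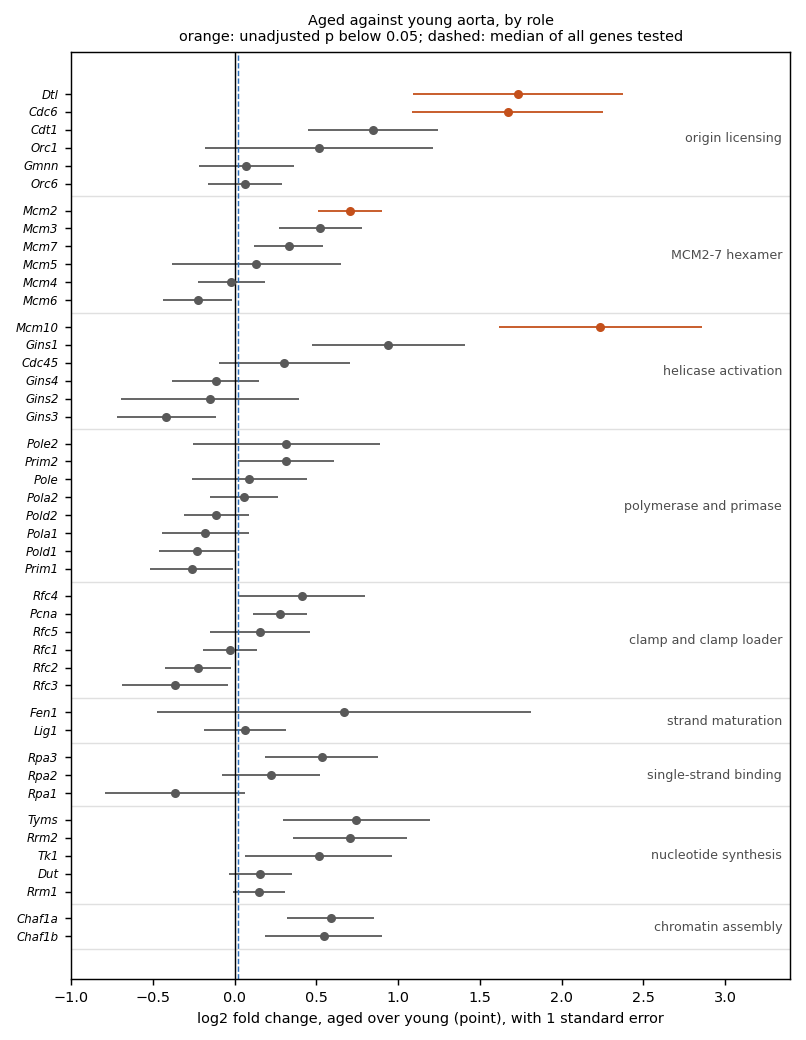
Log2 fold change of aged over young aorta from the edgeR fit (point) with 1 standard error on each side, for the 44 genes grouped by role. Orange marks the 4 genes with an unadjusted p below 0.05 (Dtl, Cdc6, Mcm2 and Mcm10), and the dashed line marks the median of all genes tested, 0.02. Licensing, nucleotide synthesis and chromatin assembly genes all lie to the right of 0, and the polymerase genes straddle it.

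Nucleotide synthesis genes were positive in 5 of 5 cases, against 52.1% of all genes, with a median log2 fold change of 0.51 and 0 at an unadjusted p below 0.05. Ribonucleotide reductase, which makes deoxynucleotides, joins the large subunit Rrm1 to the S phase subunit Rrm2. Rrm1 was at 24.8, 19.5 and 21.8 CPM in young and 26.2, 22.7 and 24.5 CPM in aged aorta, for a log2 fold change of 0.15 (SE 0.16). Rrm2 was at 1.57, 1.67 and 2.65 CPM in young and 2.56, 3.55 and 3.50 CPM in aged aorta. Young replicate 3 and aged replicate 1 were nearly equal, and the log2 fold change was 0.71 (SE 0.35, edgeR adjusted p = 0.529).

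On the same scale, with the same dependence on gene length, Rrm1 was 3.06 ± 1.01 (SD, n = 3) times the FPKM of Rrm2 in young aorta. In aged aorta it was 2.01 ± 0.536 times (SD, n = 3). The alternative small subunit Rrm2b, which supplies resting cells, was 4.05 ± 1.78 (SD, n = 3) and 2.24 ± 0.188 (SD, n = 3) times Rrm2. Both pairs of ranges overlapped. Tyms, thymidylate synthase, was at 5.16, 2.13 and 4.05 CPM in young and 9.90, 4.29 and 4.85 CPM in aged aorta, and its log2 fold change of 0.75 (SE 0.45) was 0.27 without aged replicate 1. Tk1, the thymidine kinase of cycling cells, was at 2.83, 8.25 and 2.83 CPM in young and 6.65, 7.13 and 6.05 CPM in aged aorta, so that young replicate 2 exceeded all aged libraries. Dut, which removes dUTP, had a log2 fold change of 0.16 (SE 0.19).

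Chromatin assembly factor 1 places histones on new DNA. Chaf1a was at 2.85, 2.44 and 3.06 CPM in young and 4.33, 3.55 and 4.67 CPM in aged aorta, without overlap, for a log2 fold change of 0.59 (SE 0.27, edgeR adjusted p = 0.507). Exons of Ubxn6 on the opposite strand cover 52.5% of its exon bases and carried between 1508 and 2523 counts, far above the level of Chaf1a, so its value is uncertain. Chaf1b was at 1.36, 1.44 and 1.60 CPM in young and 2.56, 1.54 and 2.34 CPM in aged aorta, for a log2 fold change of 0.55 (SE 0.36).

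The wider pathway was read from 72 further genes of replication, nucleotide supply and E2F control, of which 69 were tested. Of these, 44 were positive with a median log2 fold change of 0.13, 5 were higher and 2 lower at an unadjusted edgeR p below 0.05, and 0 had an adjusted p below 0.05. The shares of all genes at that threshold were 5.56% and 4.82%. Every aged library was above every young one for 9 of the 69, against 7.74% of all genes, and below for 4, against 8.78%. Uhrf1, which carries DNA methylation onto new strands, was at 1.07, 1.15 and 1.40 CPM in young and 2.83, 4.13 and 4.32 CPM in aged aorta (log2 fold change 1.64, edgeR adjusted p = 0.345, DESeq2 adjusted p = 0.00293). Top2a, which untangles copied chromosomes, and Ccna2, the cyclin of S phase, had log2 fold changes of 1.96 and 1.51 (DESeq2 adjusted p = 0.00231 and 0.00769). These 3 were the genes of the wider list that DESeq2 called, and it called 1.48% of all genes as higher in aged aorta.

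On the lower side, Rbl1, a pocket protein that represses E2F targets, was at 3.67, 3.91 and 4.20 CPM in young and 2.62, 1.80 and 2.23 CPM in aged aorta (log2 fold change -0.82, edgeR adjusted p = 0.415). Pold3, a subunit of polymerase delta, was at 15.3, 15.2 and 18.2 CPM in young and 11.9, 11.7 and 12.2 CPM in aged aorta (log2 fold change -0.44, edgeR adjusted p = 0.448). Both sets of libraries were separated by age. E2f6, a repressing E2F, came next by p at -0.42.

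Of 20 mitotic genes given for comparison, 19 were positive with a median log2 fold change of 1.35, and 10 were higher at an unadjusted edgeR p below 0.05 (5.56% of all genes), with 0 passing after adjustment and 3 called by DESeq2 (Ccnb2, Mki67 and Top2a, the last shared with the wider list), which called 1.48% of all genes as higher. The 10 became 4 without young replicate 1 and 4 without aged replicate 1. Ccnb2, a mitotic cyclin, was at 0.248, 0.460 and 0.233 CPM in young and 2.23, 1.27 and 2.19 CPM in aged aorta, a log2 fold change of 2.59. Mki67, the proliferation antigen, was at 1.30, 2.70 and 2.21 CPM in young and 9.72, 4.90 and 8.71 CPM in aged aorta, a log2 fold change of 1.91. Anln, an actin-binding protein of the ring that parts dividing cells and the most abundant of the 20, was the single negative value at -0.08. In both Ccnb2 and Mki67, aged replicate 2 was the aged library nearest to the young ones. The difference between the mitotic and the replication genes was not tested.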

How the data were processed

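RNA of whole aorta from 3 young and 3 aged mice was sequenced with 1 library for each mouse. The authors deposited whole-number counts per gene without normalization, and FPKM, which scale the same counts for gene length and library. The submitters' processing notes name the mouse build mm10, and the aligner, the counter and the use of strand are not given in the sources used here. Positions and exon overlaps are from GENCODE M21 (GRCm38) and promoter windows from RefSeq.

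Counts were filtered in R 4.3.3 with filterByExpr of edgeR 4.0.16 (grouped by age, minimum count 10, minimum total 15), normalized by TMM and fitted by quasi-likelihood without covariates over 16612 genes, and p values were adjusted by Benjamini and Hochberg (threshold 0.05). The script was tested on simulated data. The fit was repeated with RLE size factors, without a filter, with at least 10 counts in every library, with a replicate block, with each library left out, with DESeq2 1.42.0, and with limma 3.58.1 on log2 of the deposited FPKM plus 1 or 0.1. The members and lists were chosen with earlier results of these data known. Every library is given for members that separated the groups, had an unadjusted p below 0.05, had few counts, or belong to licensing, the helicase or ribonucleotide reductase. For the wider and the mitotic list, the 3 genes with the smallest p in each direction are named, and other members follow in part with values in every library, chosen after their values were seen.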

Additional observations from a re-analysis of the deposited data

How the results depend on the processing

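No replication gene was called by edgeR under any alternative run, nor by DESeq2 or limma. Over all genes, DESeq2 called 338, edgeR 110 without aged replicate 2, and 0 to 110 genes with any library left out. Members higher in aged aorta numbered 25 to 36 and their median log2 fold change was 0.07 to 0.36 when libraries were left out. Members higher at an unadjusted p below 0.05 numbered 3 to 5 then, 0 with limma on log2(FPKM + 1) and 1 on log2(FPKM + 0.1). These were not always the same genes. Mcm2 and Mcm10 stayed below 0.05 with each single library left out. Cdc6 did not without young replicate 3 or aged replicate 3. Dtl did not without young replicate 1, young replicate 3, aged replicate 1 or aged replicate 2. On log2(FPKM + 1), 1 member, Gins3, was lower at that threshold. The labels give no pairing of the replicate numbers across the ages. Deviations from the group means had correlations of 0.0786, 0.1166 and 0.0957 for replicates 1, 2 and 3. Unmatched numbers were not compared, so these values cannot decide on pairing. With the replicate block the higher genes of the wider list numbered 3, 31 members were higher with a median of 0.15, and 0 were called after adjustment. The members higher at an unadjusted p below 0.05 numbered 4 there as well, but Cdc6 was no longer among them and Tyms was, and the mitotic genes numbered 9 in place of 10. The median was -0.0058 and -0.066 with limma, when the median of all genes was -0.12 and -0.19, and the members lay 0.11 and 0.13 above those.

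Of the 44 members, 26 kept their sign under all alternatives run and 18 did not. With limma on log2(FPKM + 1) and log2(FPKM + 0.1), negative values were given by Orc6 (-0.13, -0.16), Gmnn (-0.096, -0.14), Mcm5 (-0.070, -0.16), Pola2 (-0.089, -0.16), Pole (-0.014, -0.069), Rfc5 (-0.064, -0.12), Lig1 (-0.11, -0.16), Rrm1 (-0.043, -0.062) and Dut (-0.058, -0.071), and on the latter by Pole2 (-0.10). With libraries left out, including young replicate 1 and aged replicate 2 together, which was chosen after seeing the data, the log2 fold change ranged across 0 for Orc6 (-0.079 to 0.22), Gmnn (-0.073 to 0.20), Mcm4 (-0.12 to 0.20), Mcm5 (-0.22 to 0.51), Cdc45 (-0.0076 to 0.78), Gins2 (-0.56 to 0.28), Gins4 (-0.40 to 0.091), Pola1 (-0.31 to 0.20), Pola2 (-0.048 to 0.17), Pold2 (-0.21 to 0.10), Pole2 (-0.27 to 0.73), Rfc1 (-0.11 to 0.11), Rfc5 (-0.048 to 0.42), Lig1 (-0.11 to 0.33) and Rpa1 (-0.58 to 0.14). The cause of these turns was not tested. Below 3 CPM, counting error limits single genes, and the 10-count filter removed Orc1, Mcm10 and Fen1.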

Other observations

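Besides Cdc6, Gins1 and Fen1, 4 members had a library more than 0.6 above or below the other 5 on the scale of log2(CPM + 0.1). Gins2 was at 2.01 CPM in aged replicate 2 and between 5.14 and 9.82 CPM elsewhere. Gse1, which overlaps Gins2 on the opposite strand, held 489 counts in that library and 80 to 369 elsewhere. Rpa1 was at 52.5 CPM in young replicate 2 and 14.1 CPM in aged replicate 2, with the others between 22.2 and 32.5 CPM. Pole2 was at 3.61 CPM in aged replicate 1 and 0.742 CPM in aged replicate 2, with the others between 1.40 and 2.16 CPM. Tyms was at 2.13 CPM in young replicate 2 and 9.90 CPM in aged replicate 1, with the others between 4.05 and 5.16 CPM. Young replicate 2 and aged replicate 2 also held the most summed adipocyte markers, 1662 and 3570 CPM against 451 to 941 CPM in the others. Whether these values go together was not tested.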
